A study of Mus musculus with 3 samples.

Results

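The genes of steroid hormone synthesis and of cholesterol synthesis, regulation and transport were examined for binding of NR2F2 (also called COUP-TFII), a nuclear receptor that acts as a transcription factor. The list held 42 genes of 26180 genes with curated RefSeq transcripts: 13 steroidogenic genes, 18 genes of cholesterol synthesis, 5 genes of sterol regulation and 6 genes of cholesterol uptake and transport. Of the 10064 NR2F2 peaks on chromosomes, each 300 bp wide, 24 had a member of the list as the gene of the nearest transcription start site (TSS), and another 27 lay within 50 kb of a member TSS but nearer to the TSS of another gene. A further 5 peaks, on unplaced contigs, entered the counts over all peaks only. In all, 20 of the 42 genes were the nearest gene of a peak, 10 had a peak within 50 kb that was nearer to another gene, and 12 had neither.

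The data came from chromatin immunoprecipitation followed by sequencing (ChIP-seq) of whole testes from CD-1 mouse embryos of stage E14.5, with the mesonephros removed and no treatment or allele named in the labels. NR2F2 was immunoprecipitated in 2 libraries, and 1 library of input chromatin, which skipped that step, served as the background. Chromatin came from 30 pooled testes, and the study's methods call the ChIP libraries biological replicates from independent experiments, without saying whether each had its own pool. The input stood at 0 to 29 reads per peak over all peaks, ChIP replicate 1 at 5 to 442 and ChIP replicate 2 at 4 to 517, and the totals at peaks were 73251, 426784 and 364261 reads. The files held reads at peaks only, so sequencing depth is unknown, the ratio of ChIP to input is known only up to a factor of depth, and cell type markers could not be checked. Peaks were called by the authors on the merged reads of the same ChIP libraries, so a ChIP count above the input at a peak is not independent evidence of binding.

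Cholesterol is built from acetyl-CoA through mevalonate, squalene and lanosterol in the endoplasmic reticulum, and the genes of this route are controlled by the SREBP factors (Srebf1 and Srebf2), their escort Scap and their retention factors Insig1 and Insig2. In the fetal testis, Leydig cells carry cholesterol into mitochondria with STAR and convert it to androgens with CYP11A1, HSD3B and CYP17A1 enzymes. The study found NR2F2 protein at E14.5 in interstitial cells that do not make steroids. It saw none in Leydig cells marked by CYP17A1, Sertoli cells marked by AMH or endothelial cells marked by PECAM1. A few interstitial cells held low levels of both NR2F2 and NR5A1. A whole testis holds all of these cells, and germ and other cells. In such a mixture, weak binding in many cells and strong binding in few cells cannot be told apart.

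Peaks were spread unevenly over the roles. Among the 13 steroidogenic genes, 4 (30.8%) were the nearest gene of a peak, 3 (23.1%) had a peak within 1 kb of a TSS and 7 (53.8%) had one within 50 kb. Over all 21000 coding genes, these shares were 33.2%, 28.1% and 56.1%. The steroidogenic shares thus lay close to those of coding genes. Among the 18 cholesterol synthesis genes, 7 (38.9%) were the nearest gene of a peak, 10 (55.6%) had a peak within 1 kb and 13 (72.2%) had one within 50 kb. Of the 5 genes of sterol regulation, 4 (80.0%) had a peak within 1 kb, and the same was true of 5 of 6 (83.3%) genes of uptake and transport. With so few genes per role, 1 gene moves a share by many percentage points, and the shares are descriptions without a test.

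**Figure D1:**
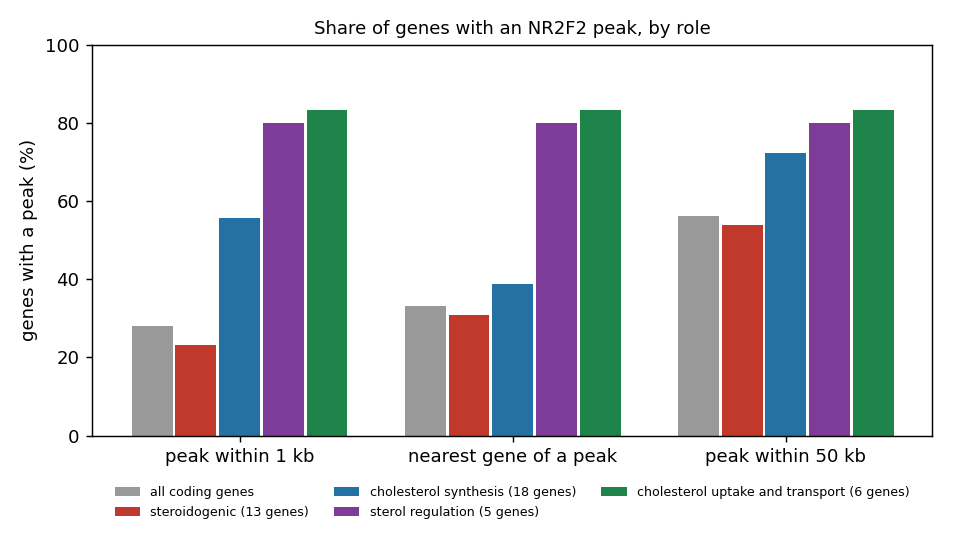
Share of genes (%, y axis from 0) with a peak within 1 kb of a TSS, as the nearest gene of a peak, or with a peak within 50 kb, for all 21000 coding genes (grey) and for each role. The steroidogenic bars stand at 23.1%, 30.8% and 53.8%, near the grey bars at 28.1%, 33.2% and 56.1%, and the bars of the other roles stand above the grey ones.

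Of the 24 peaks whose nearest gene was a member, 18 (75.0%) lay within 1 kb of the member TSS, whereas 58.0% of all peaks on chromosomes lay within 1 kb of a TSS. All 7 nearest peaks of cholesterol synthesis genes were in this range, and 2 of the 6 nearest peaks of steroidogenic genes were. No test was made of these shares. The 6 peaks beyond 1 kb belonged to Hsd17b3 (a pair), Star, Fdx1, Scap and Soat1. Peak sequences were read from the RefSeq copy of GRCm38, the assembly named mm10, and are printed on the strand of the member gene.

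The sequences of the peak with the highest mean ChIP count in each role (leaving out Npc1, whose peak stood above that of Scarb1), and of the Star peak are printed first, since they show what kind of DNA lies under these peaks. UTR bases are not shown, and where a peak held them its longest run without UTR bases is printed, which was 159 bases for Hsd17b7 and 54 bases for Scarb1. Capitals mark the half-site AGGTCA that nuclear receptors bind, or a direct repeat of it with a 1-base spacer (DR1) with at most 2 mismatches in 12 positions, on either strand. In Hsd17b7, which had neither, capitals mark CCAAT and CACGTG.
Hsd17b3 (intergenic, 108536 bp downstream of the TSS), mm10 chr13:63980366-63980665, - strand: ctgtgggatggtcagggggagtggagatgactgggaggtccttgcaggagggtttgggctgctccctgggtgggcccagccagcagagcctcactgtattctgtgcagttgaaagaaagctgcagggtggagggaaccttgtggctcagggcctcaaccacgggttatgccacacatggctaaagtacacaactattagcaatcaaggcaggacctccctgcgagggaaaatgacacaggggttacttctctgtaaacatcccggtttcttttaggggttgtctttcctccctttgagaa
Hsd17b7 (promoter), mm10 chr1:169969206-169969364, - strand: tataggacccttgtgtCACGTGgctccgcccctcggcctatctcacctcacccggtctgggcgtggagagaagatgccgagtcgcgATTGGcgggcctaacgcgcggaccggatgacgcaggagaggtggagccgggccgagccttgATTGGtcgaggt
Srebf1 (312 bp upstream of the nearest TSS), mm10 chr11:60222893-60223192, - strand: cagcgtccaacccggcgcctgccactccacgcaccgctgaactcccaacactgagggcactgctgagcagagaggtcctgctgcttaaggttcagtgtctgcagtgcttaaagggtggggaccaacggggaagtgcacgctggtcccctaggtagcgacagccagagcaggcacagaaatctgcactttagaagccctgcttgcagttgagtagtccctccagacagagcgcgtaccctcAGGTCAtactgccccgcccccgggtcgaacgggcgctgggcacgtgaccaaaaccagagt
Scarb1 (promoter), mm10 chr5:125341095-125341148, - strand: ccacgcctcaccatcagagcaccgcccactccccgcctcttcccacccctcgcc
Star (10588 bp downstream of the TSS, in an intron of Ash2l), mm10 chr8:25819062-25819361, + strand: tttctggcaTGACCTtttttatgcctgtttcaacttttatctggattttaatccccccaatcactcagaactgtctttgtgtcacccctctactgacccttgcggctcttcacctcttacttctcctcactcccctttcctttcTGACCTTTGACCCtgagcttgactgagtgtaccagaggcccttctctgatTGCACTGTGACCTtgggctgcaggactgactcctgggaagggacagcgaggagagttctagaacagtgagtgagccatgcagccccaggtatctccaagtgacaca

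The Star stretch was the richest of these in nuclear receptor sequences, with 3 half-sites and 2 DR1 matches. One of the repeats, GGGTCAAAGGTCA, had 1 mismatch, and the other, AGGTCACAGTGCA, had 2. The Hsd17b3 and Hsd17b7 stretches held none of these forms, and the Srebf1 stretch held 1 half-site.

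A further set, chosen after the values were seen, shows the other distal member peaks with a DR1 or an extended half-site (AGAGGTCA or AGGGGTCA), and the peak near Cyp11a1, which had the highest ratio of ChIP to input of the peaks near steroidogenic genes. Capitals mark the half-site, the extended form or a DR1.
Soat1 (intron, 13717 bp downstream of the TSS), mm10 chr1:156460312-156460611, - strand: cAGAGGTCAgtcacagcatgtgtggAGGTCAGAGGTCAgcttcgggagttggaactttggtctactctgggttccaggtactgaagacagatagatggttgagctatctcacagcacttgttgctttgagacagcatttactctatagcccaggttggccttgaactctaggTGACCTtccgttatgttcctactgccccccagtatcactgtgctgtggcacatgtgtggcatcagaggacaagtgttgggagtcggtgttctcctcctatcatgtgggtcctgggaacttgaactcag
Fdx1 (intergenic, 27188 bp upstream of the TSS), mm10 chr9:51990790-51991089, - strand: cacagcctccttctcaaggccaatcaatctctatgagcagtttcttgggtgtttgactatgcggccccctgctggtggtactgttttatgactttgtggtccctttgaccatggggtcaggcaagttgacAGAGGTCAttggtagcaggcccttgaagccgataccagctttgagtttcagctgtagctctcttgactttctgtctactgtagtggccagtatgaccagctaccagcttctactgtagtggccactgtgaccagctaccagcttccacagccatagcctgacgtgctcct
Scap (intron, 10430 bp downstream of the nearest TSS), mm10 chr9:110343786-110344085, + strand: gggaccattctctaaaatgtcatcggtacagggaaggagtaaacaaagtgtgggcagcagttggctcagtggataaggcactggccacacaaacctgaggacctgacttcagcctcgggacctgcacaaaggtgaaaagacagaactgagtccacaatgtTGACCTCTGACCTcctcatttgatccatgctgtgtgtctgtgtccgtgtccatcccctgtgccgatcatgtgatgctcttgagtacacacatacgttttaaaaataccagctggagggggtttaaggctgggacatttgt
Cyp11a1 (38294 bp downstream of the nearest TSS, in an intron of Ccdc33), mm10 chr9:58053246-58053545, + strand: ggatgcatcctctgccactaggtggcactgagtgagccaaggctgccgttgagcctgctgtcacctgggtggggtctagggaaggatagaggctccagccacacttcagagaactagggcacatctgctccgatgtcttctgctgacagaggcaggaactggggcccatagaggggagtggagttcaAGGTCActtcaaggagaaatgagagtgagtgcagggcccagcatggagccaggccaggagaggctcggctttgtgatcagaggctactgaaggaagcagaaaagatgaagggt

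The Soat1 and Scap peaks each held a DR1 without mismatch, AGGTCAGAGGTCA in both. In the genome file, 54.3% of the bases of the Soat1 peak and 31.3% of those of the Scap peak were soft-masked as repeats. The Soat1 peak was the only 1 of the 24 with over 50% of masked bases, against 1.13% of all peaks. The part of repeats in these read counts was not tested.

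**Figure D2:**
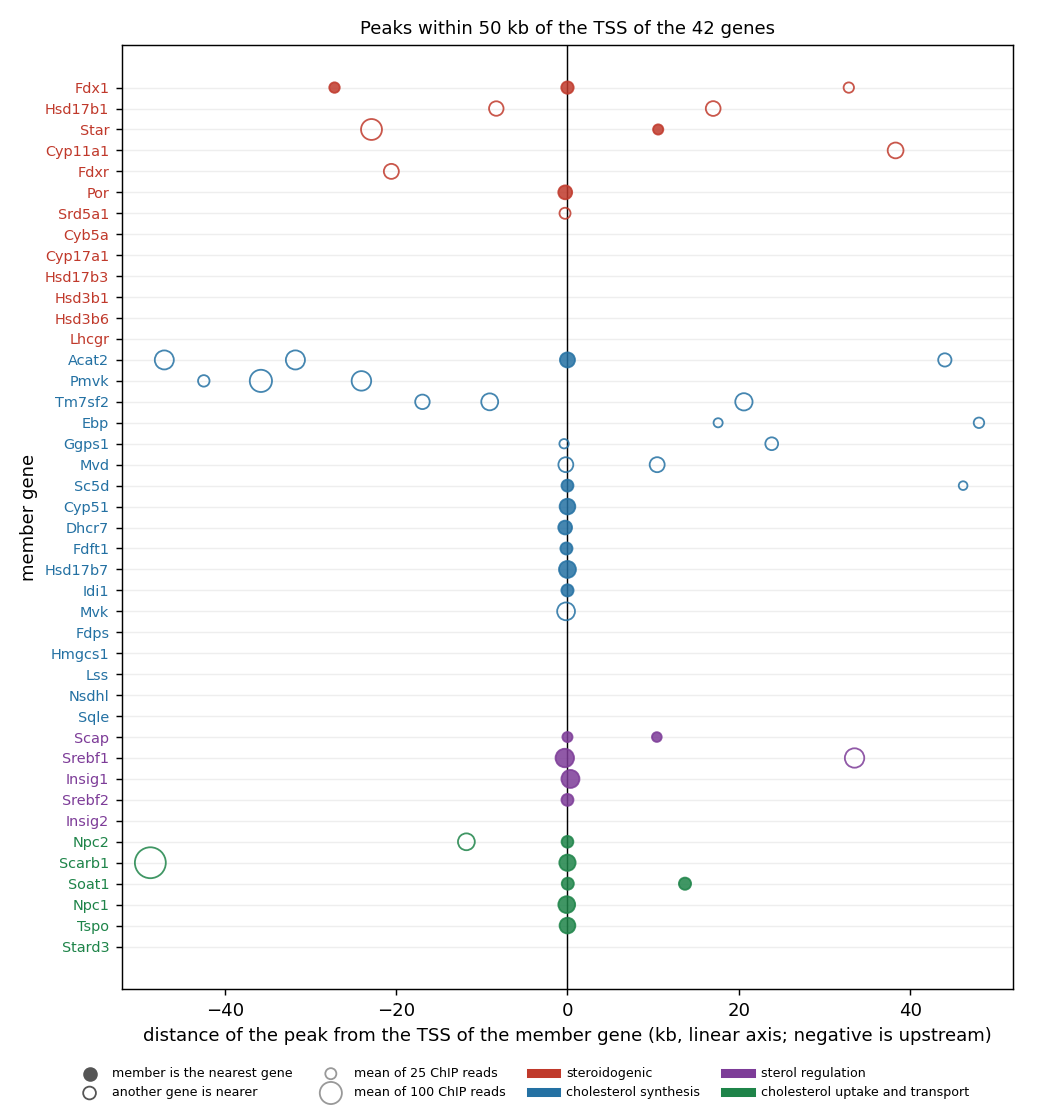
Each row is 1 of the 42 genes, coloured by role, and each circle is a peak at its distance from the member TSS (x axis, kb, linear, negative upstream), with an area that grows with the mean ChIP count of both replicates. Filled circles are peaks whose nearest gene is the member and open circles are nearer to another gene. Filled circles of cholesterol synthesis genes all sit at the TSS, while the steroidogenic rows have few circles there. The 2 Hsd17b3 peaks lie beyond 50 kb and are not drawn.

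Among the steroidogenic genes, Star (gene ID 20845) moves cholesterol into the mitochondrion, the first step of steroid synthesis. Its peak had 9 reads in the input, 24 in ChIP replicate 1 and 19 in ChIP replicate 2. Both ChIP counts stood above the input, yet the log2 ratio of ChIP to input, with 0.5 added to each count, was 1.20 ± 0.23 (SD, n = 2), and only 3.82% of all peaks had a lower one. In the edgeR quasi-likelihood test that took the libraries as equally deep, the log2 fold change was 1.24 with a standard error of 0.34. The Benjamini-Hochberg adjusted p of this test was 0.0560, so the peak did not pass the 0.05 threshold. It passed in edgeR with robust fitting (adjusted p = 0.0345) and with the ChIP replicates scaled to each other (0.0219). In DESeq2, an alternative test, it did not (adjusted p = 0.230). The same window held a second peak, 22871 bp upstream at the Lsm1 TSS, with 19, 96 and 83 reads in the input and the ChIP replicates.

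Hsd17b3 (15487) makes testosterone from androstenedione. It had no peak within 50 kb, but was the nearest gene of 2 intergenic peaks downstream. The peak at 108536 bp had 8 input reads and 53 and 49 ChIP reads, and the one at 53836 bp had 7 input reads and 36 and 33 ChIP reads. Both passed the equal-depth edgeR test, with log2 fold changes of 2.65 (standard error 0.31) and 2.28 (standard error 0.30) and an adjusted p of 0.0311 each. At these distances the nearest gene is only an assignment.

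Fdx1 (14148) encodes ferredoxin, which hands electrons to the mitochondrial P450 enzymes. The peak over its TSS had 4 input reads and 32 and 31 ChIP reads, and the peak 27188 bp upstream had 7 input reads and 23 and 22 ChIP reads. Por (18984), the electron donor of the P450 enzymes of the endoplasmic reticulum, had a peak 261 bp upstream of its TSS with 12 input reads and 43 and 36 ChIP reads. The ChIP replicates nearly coincided at both Fdx1 peaks, and all 3 peaks passed the equal-depth edgeR test with adjusted p of 0.0311, 0.0317 and 0.0339. In DESeq2 at equal depths, only the peak over the Fdx1 TSS passed (adjusted p = 0.0194). The distal Fdx1 peak (DESeq2 adjusted p = 0.125) and the Por peak (0.0633) did not.

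Of the steroidogenic genes with a peak in their neighbourhood only, Cyp11a1 (13070), which encodes the enzyme that cleaves the cholesterol side chain, had the most enriched one. That peak had 2 input reads and 56 and 46 ChIP reads. Its log2 ratio was 4.36 ± 0.20 (SD, n = 2), above that of 98.5% of all peaks, on an input so low that counting error dominates it. It passed the equal-depth edgeR test at a log2 fold change of 4.59 (standard error 0.48, adjusted p = 0.0311). When the libraries were scaled to each other at peaks (TMM), so that a peak is compared with the typical peak, it was 2.33 higher on the log2 scale (standard error 0.80), with an edgeR adjusted p of 0.125. The nearest TSS, 20972 bp away, belonged to the non-coding gene Gm16130.

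Srd5a1 (78925), a steroid 5-alpha reductase, had a peak 286 bp upstream that overlapped the TSS of Nsun2, with 4 input reads and 29 and 21 ChIP reads. A peak 8307 bp upstream of Hsd17b1 (15485), which reduces estrone, overlapped the TSS of Naglu and had 10, 50 and 36 reads in the input and the ChIP replicates. Fdxr (14149), the reductase that feeds ferredoxin, had 1 peak 20555 bp upstream at the Fads6 TSS with 8, 50 and 42 reads. For none of these could the read counts assign the peak to the member rather than to its neighbour.

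Of the steroidogenic genes, 5 were neither the nearest gene of a peak nor within 50 kb of one: Cyp17a1, Hsd3b1, Hsd3b6, Cyb5a and Lhcgr. Cyp17a1, which makes androgen precursors, was 99375 bp from its closest peak, which had 4 input reads and 53 and 48 ChIP reads. Hsd3b1 and Hsd3b6, neighbouring 3-beta-hydroxysteroid dehydrogenase genes, shared a closest peak at 72113 and 117464 bp with 7 input reads and 12 and 16 ChIP reads. Cyb5a, which stimulates the lyase step of CYP17A1, was 100509 bp from a peak with 11, 43 and 22 reads. Lhcgr, the receptor for luteinizing hormone, was 194671 bp from a peak with 8, 31 and 29 reads. The files held no counts outside peaks, so binding below the authors' peak threshold at these genes was not detectable.

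In cholesterol synthesis, 7 genes from the first to the last steps of the route were the nearest gene of a peak. Acat2 (110460), which joins acetyl-CoA units, had a peak over its TSS with 12 input reads and 54 and 39 ChIP reads. Idi1 (319554), the isopentenyl diphosphate isomerase, had 13 input reads and 36 and 25 ChIP reads at its TSS. Its log2 ratio of 1.18 ± 0.37 (SD, n = 2) was the lowest of the 24 peaks, and its equal-depth edgeR adjusted p was 0.0825. Fdft1 (14137), squalene synthase, had 8 input reads and 34 and 26 ChIP reads in a peak that ended 120 bp before the nearest TSS.

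Of the later enzymes, Cyp51 (13121), the lanosterol demethylase, had 16 input reads and 52 and 49 ChIP reads at its TSS, the highest input of the 24 peaks. Hsd17b7 (15490), a ketosteroid reductase of this route, had 9 input reads and 65 and 53 ChIP reads, the highest mean ChIP count among the 7 nearest peaks of synthesis genes, in a promoter shared with 3110045C21Rik. Sc5d (235293), the sterol desaturase, had 3 input reads and 41 and 18 ChIP reads. The ChIP replicates stood further apart there than at any other of the 24 peaks on the log2 scale (2.98 ± 0.82, SD, n = 2), and the equal-depth edgeR test gave an adjusted p of 0.0755. Dhcr7 (13360), which makes cholesterol in the last step, had 9 input reads and 42 and 36 ChIP reads in a peak that ended 268 bp before the nearest of its 3 TSSs, inside an intron of a longer Dhcr7 transcript.

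At 3 more synthesis genes, a peak within 1 kb of the TSS was nearer to a divergent or neighbouring gene. The peak 164 bp upstream of Mvk (17855), mevalonate kinase, overlapped the Mmab TSS and had 11 input reads and 75 and 55 ChIP reads. The peak 190 bp upstream of Mvd (192156), mevalonate diphosphate decarboxylase, overlapped the TSS of the non-coding 9330133O14Rik and had 9, 41 and 50 reads. The peak 397 bp upstream of Ggps1 (14593), which makes geranylgeranyl diphosphate, lay beside the Arid4b TSS and had 3, 27 and 9 reads, with an equal-depth edgeR adjusted p of 0.157. Replicate 1 had 3 times the reads of replicate 2 at Ggps1, while the replicates lay closer together at Mvk and Mvd.

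Tm7sf2, Pmvk and Ebp had peaks in their neighbourhood only. Tm7sf2 (73166), a sterol reductase, was 9074 bp from a peak at Vps51 with 9 input reads and 68 and 49 ChIP reads. The closest peak of Pmvk (68603), phosphomevalonate kinase, lay at the Pygo2 TSS 24048 bp away, and that of Ebp (13595), a sterol isomerase, at Tbc1d25 17582 bp away. Their reads in the input and the ChIP replicates were 7, 90 and 66 for Pmvk and 6, 16 and 18 for Ebp.

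Hmgcs1, Fdps, Sqle, Lss and Nsdhl had no peak within 50 kb. Hmgcs1, the HMG-CoA synthase, was 65263 bp from its closest peak (8 input reads, 22 and 19 ChIP reads), and Fdps, farnesyl diphosphate synthase, was 57256 bp from one with 7, 34 and 51 reads. Sqle, squalene epoxidase, was 233352 bp away from a peak with 2, 32 and 32 reads. Lss, lanosterol synthase, was 62678 bp away from one with 3, 61 and 48 reads, and Nsdhl, a sterol dehydrogenase on the X chromosome, was 135372 bp from one with 2, 34 and 18 reads.

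The 2 highest mean ChIP counts of the 24 peaks were at genes of sterol regulation. Srebf1 (20787) had 12 input reads and 78 and 62 ChIP reads in a peak that ended 312 bp before the nearest of its 3 TSSs. Insig1 (231070) had 9 input reads and 70 and 63 ChIP reads in its own intron, 347 bp downstream of the TSS. Srebf2 (20788), the factor that mainly drives cholesterol synthesis, had 7 input reads and 35 and 24 ChIP reads at its TSS. Scap (235623) had 3 input reads and 23 and 19 ChIP reads at its TSS and 7 input reads and 17 and 22 ChIP reads in its intron. Insig2 was 1062402 bp from the closest peak, which had 10 input reads and 50 and 39 ChIP reads, the longest gap of the 42 genes.

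In cholesterol uptake and transport, the promoters of Scarb1, Npc1, Npc2, Soat1 and Tspo had peaks. Scarb1 (20778), the receptor for high-density lipoprotein, had 10 input reads and 69 and 40 ChIP reads, with an equal-depth edgeR adjusted p of 0.0517. Npc1 (18145) and Npc2 (67963), which export cholesterol from lysosomes, had 10, 60 and 56 reads in a peak 84 bp upstream of the TSS and 8, 29 and 28 reads at the TSS. Soat1 (20652), which esterifies cholesterol for storage, had 6, 31 and 29 reads 39 bp downstream of its TSS, and 8, 32 and 29 reads in its intron. Tspo (12257), a protein of the outer mitochondrial membrane, had 13, 52 and 50 reads. Stard3, a sterol carrier of endosomes, had no peak within 50 kb, and its closest one, 56306 bp away, had 13, 36 and 29 reads.

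**Figure D3:**
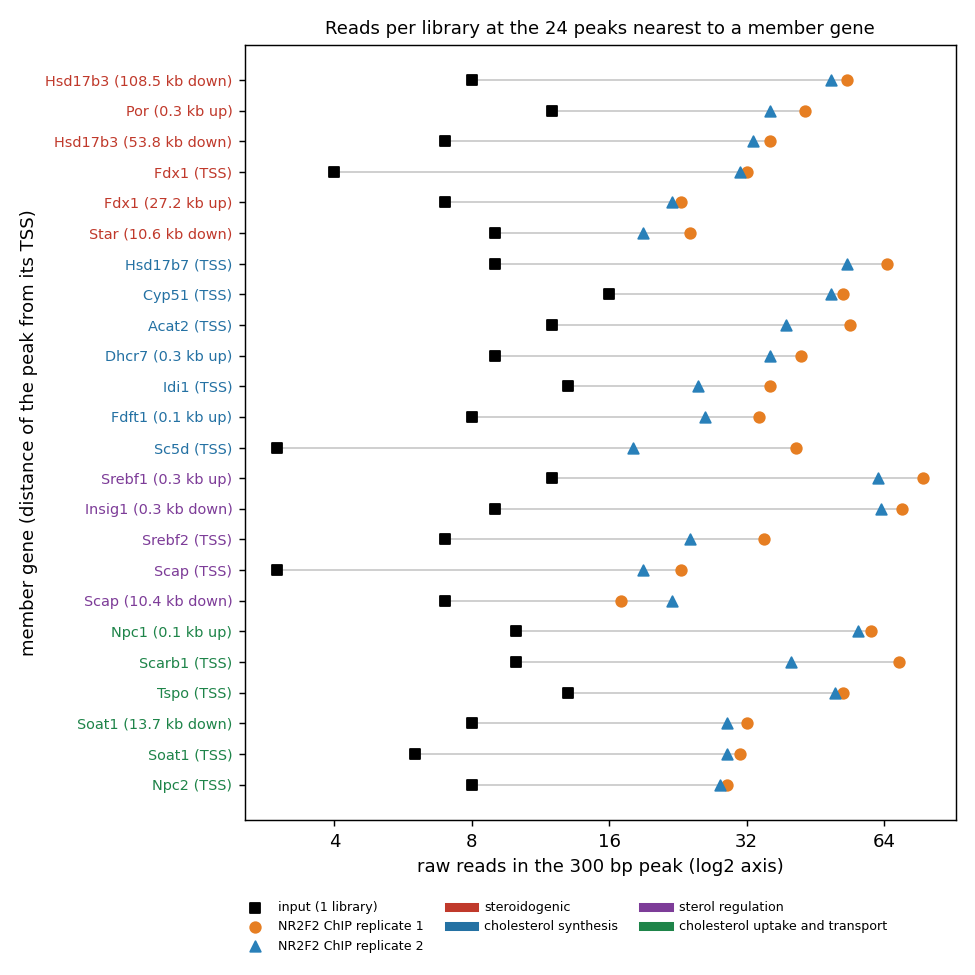
Raw reads in each 300 bp peak (x axis, log2 scale) for the 24 peaks whose nearest gene is a member, with the input as squares, ChIP replicate 1 as circles and ChIP replicate 2 as triangles, grouped and coloured by role. Every ChIP point stands to the right of its input point. Replicate 1 has more reads than replicate 2 at 23 of the 24 peaks (all but the Scap intron) and at 6975 of all peaks. The total of replicate 1 at all peaks is also the larger, at 426784 against 364261 reads. The shares of member peaks and of all peaks were not compared by a test.

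In the equal-depth edgeR test, 20 of the 24 peaks (83.3%) exceeded the input with an adjusted p below 0.05, as did 80.7% of all peaks. Star, Idi1, Sc5d and Scarb1 were the 4 that missed the threshold. Over all 51 peaks near members, 42 (82.4%) passed. The share of member peaks was therefore that of the background. The test depends on the assumed depth: if the ChIP libraries were in fact sequenced 2 times as deeply as the input, 0 of the 24 and 0 of all peaks passed, while 9 of the 24 had an unadjusted p under 0.05.

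Against the typical peak, a comparison that does not need the depths, 0 of the 24 peaks were higher or lower in the edgeR quasi-likelihood test, where 1.53% of all peaks were called above and 0.0497% below. At an unadjusted p under 0.05, 1 of the 24 passed (Idi1, at a log2 difference of -1.09 with a standard error of 0.50), where 10.4% of all peaks did, 2.55% below and 7.89% above, and DESeq2 called 0 at an adjusted p but gave 23 of the 24 none. Among the 27 peaks nearer to other genes, 2 were above the typical peak. One of them was the peak at the Shc1 TSS, 35781 bp upstream of Pmvk, with 5, 111 and 91 reads (adjusted p = 0.0142 in edgeR). Of these 27 peaks, 22 lay within 1 kb of the TSS of the other gene.

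The median log2 ratio over the 24 peaks was 2.06 ± 0.20 (SD, n = 2 ChIP replicates) and 2.24 ± 0.15 over all peaks. The difference of the medians, members minus all peaks, was -0.15 in replicate 1 and -0.21 in replicate 2, and it was not tested. Within 1 kb of a TSS the member median was 2.10 over the 18 nearest peaks, 2.23 over the 22 member promoter peaks that include those nearer to another gene, and 2.33 over all peaks. Over 1 kb from a TSS, the medians of members and of all peaks were 1.74 and 2.12. By role, the medians were 1.96 ± 0.12 for steroidogenic genes, 1.89 ± 0.33 for cholesterol synthesis, 2.49 ± 0.23 for sterol regulation and 2.02 ± 0.14 for uptake and transport. Steroidogenic and cholesterol synthesis peaks differed by 0.06 ± 0.21 (SD, n = 2), with opposite signs in the 2 replicates (-0.08 and 0.21), which is within the spread. These roles also differed in position, with 2 of 6 steroidogenic and 7 of 7 synthesis peaks within 1 kb of a TSS. Sterol regulation stood 0.53 and 0.66 above cholesterol synthesis in the 2 replicates, over 5 and 7 peaks, and no test of it was made. All ratios share the single input library.

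**Figure D4:**
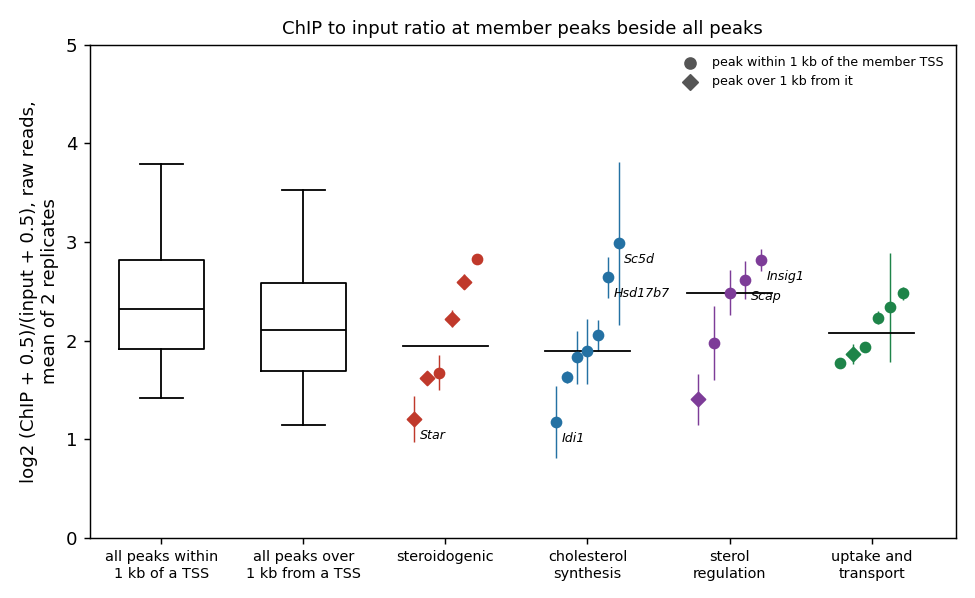
Log2 ratio of ChIP to input reads with 0.5 added (y axis, mean of the 2 ChIP replicates) for the member peaks by role, with bars of 1 SD over the replicates and a line at the median of the points, beside all peaks within and over 1 kb of a TSS (box: quartiles, whiskers: the middle 90%). Star (1.20) and Idi1 (1.18) lie low in the range of all peaks, and Sc5d has the longest bar.

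The ChIP replicates did not separate at any member peak. In a two-sided exact binomial test of the 2 ChIP counts against the split of the totals, 0 of the 24 and 0 of the 51 peaks differed at an adjusted p under 0.05, and 0.0993% of all peaks did. The smallest adjusted p among the 24 was 0.416 in this exact test, at Sc5d, and the smallest among the 51 was 0.380, at Ggps1. This test covers counting error only.

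Sequence motifs were counted on both strands of the whole 300 bp peaks. The half-site AGGTCA was in 8 of the 24 peaks (33.3%) and in 37.7% of all peaks, of which 25.6% near a TSS and 54.3% over 1 kb away held it. The extended forms AGAGGTCA and AGGGGTCA, the first of which contains the half-site, were in 4 peaks (16.7%: Fdx1, Npc1, Scap and Soat1) and in 10.5% of all peaks. A DR1 with at most 2 mismatches was in 3 peaks (12.5%: Scap, Soat1 and Star) and in 11.9% of all peaks. All 3 had a DR1 with at most 1 mismatch, a form that 4.05% of all peaks and 7.32% of those over 1 kb from a TSS held.

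At least 1 of these 3 forms was in 5 of the 6 peaks over 1 kb from the member TSS, where 60.1% of all distal peaks held one, and in 4 of the 18 within 1 kb (Acat2, Npc1, Insig1 and Srebf1), where 29.7% of all proximal peaks did. CAAGGTCA, which contains the half-site and is the form bound by NR5A1, the steroidogenic factor, was in 1 of the 24 peaks, that of Star, and in 6.72% of all peaks. Among the 27 peaks nearer to other genes, 4 held it, which lay near Cyp11a1, Fdx1, Hsd17b1 and Srebf1. Near Fdx1, a peak 32833 bp downstream that was nearer to 4933407I05Rik held AGGTCAAAGGTCA, a DR1 without mismatch, and had 5 input reads and 19 and 25 ChIP reads.

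CCAAT, the box bound by NF-Y, was in 6 of the 7 nearest peaks of cholesterol synthesis genes (85.7%), all but Acat2, and in 24.6% of all peaks within 1 kb of a TSS. Of the 3 synthesis promoter peaks nearer to another gene, that of Mvk held it and those of Mvd and Ggps1 did not, which made 7 of 10 in all. Over the 24 peaks it was in 10 (41.7%) and over all peaks in 25.8%. CACGTG, an E-box that SREBP and other factors bind, was in 5 of the 24 (20.8%: Hsd17b3, Hsd17b7, Sc5d, Scap and Srebf1) and in 9.38% of all peaks. The sterol response form TCACNCCAC was in 0 of the 24 and in 1.40% of all peaks, which says only that these letters were not in the windows. The matches are descriptions of the sequence and no test was made on them.

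Other genes of these pathways were listed from general knowledge. Of 63 such genes, 30 (47.6%) were the nearest gene of a peak, as were 20 of the 42 members (47.6%), and 42 (66.7%) had a peak within 50 kb. Over all coding genes, 33.2% were the nearest gene of a peak and 56.1% had one within 50 kb. By role, these were 9 of 24 genes of steroidogenesis, 5 of 10 of cholesterol synthesis, 6 of 10 of sterol regulation and 10 of 19 of uptake and transport. Of their 34 nearest peaks, 27 were above the input in the equal-depth edgeR test (80.7% of all peaks were), and 1 was above and 0 below the typical peak (1.53% and 0.0497% of all peaks), so these counts were near the background.

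High mean ChIP counts among them were at Fdx2, a second ferredoxin, with 10 input reads and 127 and 109 ChIP reads at the TSS, and at Stard6, of the STAR-related family, with 8, 122 and 89 reads at the TSS. Acbd3, a Golgi protein that binds TSPO, had 3, 118 and 91 reads at its TSS and was the 1 above the typical peak (2.79 on the log2 scale, edgeR adjusted p = 0.000690). Nr5a1, the factor that turns on steroidogenic genes, had 11, 75 and 66 reads in a peak 4874 bp upstream. Gata4, a factor of gonadal cells, had 8, 76 and 62 reads 152 bp upstream.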

How the data were processed

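Per the labels and the study's methods, the authors trimmed single-end reads with Trim Galore 0.6.7, mapped them to mm10 with Bowtie 2, kept a mapping quality of at least 5 and removed duplicates with Picard 1.110. They merged the ChIP replicates, called peaks with HOMER 4.11.1 and set each to 300 bp. The deposited values were raw read counts at each peak, per library. No source used here says how reads were assigned to peaks.

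Peaks were assigned to the nearest TSS of 45756 curated RefSeq transcripts (GRCm38), from the nearer peak edge, and 5 peaks on unplaced contigs were not assigned. All peaks and all 3 libraries entered the quasi-likelihood test of edgeR 4.0.16 (limma 3.58.1, R 4.3.3), once without normalisation (libraries taken as equally deep) and once with TMM factors at peaks (against the typical peak), with p adjusted by Benjamini-Hochberg over all peaks and called under 0.05. The single input left 1 residual degree of freedom, so p-values measure the spread between the 2 ChIP libraries. Ratios had 0.5 added to each count. DESeq2 1.42.0 was an alternative. The fits were tested on simulated data. The remaining values came from pandas 2.3.3, scipy 1.17.1 and numpy 2.4.6 (Python 3.11.15).

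The members, the list of other pathway genes, the motifs and the tests were chosen with earlier results of these data known. All 42 members are accounted for. Counts are given for each nearest peak, for peaks of other genes within 10 kb of a member TSS, and for the closest peak of members without one within 50 kb. Other pathway genes are named for the 6 highest mean ChIP counts. Of these genes 1, and 1 gene beside a member, are not reported here. The other neighbouring peaks that are named, and the second set of sequences, were chosen after their values were seen. No sequence of the Npc1 peak is shown.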

Additional observations from a re-analysis of the deposited data

How the results depend on the processing

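The count of member peaks above the input stayed within 1.5 times of 20 of 24 under 4 alternatives: robust fitting (24), replicates scaled to each other (24), ChIP libraries taken as 2 times shallower (24) and DESeq2 (14). Over all peaks these settings called 9816, 9847, 9858 and 6146, against 8122 in the reported test. The 14 of DESeq2 were not a part of the 20. DESeq2 gained Scarb1 and Sc5d, and lost Cyp51, Por, Npc2, Fdft1, Srebf2 and the distal peaks of Soat1, Fdx1 and Scap. The member count went to 0 when ChIP was assumed 2 times deeper than the input. There, 0 of all peaks passed as well (3928 at an unadjusted p under 0.05). With at least 10 input reads, 7 of the 8 peaks tested passed, and 2149 of 2427 over all peaks, a loss that follows from the smaller number tested. No member peak was called against the typical peak under any of the 4 alternatives. For most members, DESeq2 and the input filter could not make a call. DESeq2 gave 23 of the 24 no adjusted p, and the filter of at least 10 input reads left 8 to test. The count over all peaks went from 159 to 39 with DESeq2 size factors in edgeR. It was 22 with DESeq2, where 9370 peaks had no adjusted p, and 62 with at least 10 input reads, where fewer peaks were tested. The cause of the changes with DESeq2 and its size factors was not tested. The median log2 ratio of member peaks was 1.64 with 5 added to each count, which pulls low counts together, and 1.92 to 2.20 with either ChIP replicate left out. The difference between steroidogenic and cholesterol synthesis medians ran from -0.08 to 0.21 with either replicate left out. With coding transcripts only, 22 members were the nearest gene of a peak, Cyp11a1 and Mvd being added, and 35.5% of coding genes were. Within 10 kb, 24 members (57.1%) and 34.3% of coding genes had a peak. Within 100 kb, 36 members (85.7%) and 69.7% of coding genes did, all members but Cyb5a, Hsd3b6, Insig2, Lhcgr, Nsdhl and Sqle.

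No paired analysis was possible because the input carries no replicate number. Leaving out a replicate left no residual degrees of freedom, so no edgeR test was run there. The input, at a median of 7 reads per peak, bounds how precisely a ratio can be known.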
